A study of Rattus norvegicus with 12 samples.

Results

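Cells meet shortage of amino acids, damage to their mitochondria and unfolded protein in the endoplasmic reticulum (ER) with a shared set of signals. In the integrated stress response, kinases that phosphorylate the translation factor eIF2 slow protein synthesis while favouring translation of the transcription factor ATF4, which then drives genes of amino acid supply and, with its target CHOP (gene Ddit3), genes of growth arrest, cell death and feedback. In the unfolded protein response, the ER sensors PERK (Eif2ak3), IRE1 (Ern1) and ATF6 raise chaperones, folding enzymes and the machinery that sends misfolded protein back to the cytosol for degradation. Heart muscle cells use both programmes, and ATF4, CHOP and the ER chaperone BiP (Hspa5) are commonly read as their markers.

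The genes described here are 40 members of these programmes, chosen by symbol. A probe set was taken where the platform annotation gave it exactly 1 gene symbol and that symbol was a member. This found 39 probe sets for 37 members, of 14324 genes with such a probe set, and Sesn2, Ern1 and Edem1 were not analysed here. Psat1 and Mthfd2 had several probe sets, and the lowest-numbered one stands for the gene. By role, 5 measured members were sensors and regulators, 15 were ATF4 and CHOP targets, 13 were ER chaperones and folding factors and 4 were genes of ER degradation.

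RNA came from monolayers of heart cells of 2-day-old Sprague-Dawley rats, all from 1 litter, cultured for 3 days and then treated for 3 days. The 6 DEHP cultures received di(2-ethylhexyl) phthalate, a plasticizer of flexible medical plastic, at 50 µg/mL in 0.1% DMSO, and the 6 Control cultures received 0.1% DMSO alone. Each culture was measured on 1 Affymetrix array. Because all pups shared a litter, p-values below rest on how cultures of that litter differed, and litters were not sampled.

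Each deposited value is the ratio of an array to the median of that probe set over all 12 arrays. Values below are log2 of this ratio, so they compare arrays for 1 gene, and they hold no level that could be compared between genes. A log2 fold is the DEHP mean minus the Control mean, given ± SE from limma, and a gene passed at a Benjamini-Hochberg adjusted p under 0.05 over all 27342 probe sets. Control replicate 5 and DEHP replicate 6 had wider spreads of log2 ratios over all probe sets (SD 0.369 and 0.267) than the other arrays (0.149 to 0.188). Because the values hold no level, markers could not show which cell types were present, only how their RNA differed. Genes said to rise or fall are those that passed, which over all genes were 14.4% higher and 10.2% lower. Of 10 cardiomyocyte markers 3 rose and 2 fell (median log2 fold −0.035), and of 7 fibroblast markers 3 rose and 3 fell. Of 6 leukocyte markers 2 rose and 1 fell, and 3 of 4 measured endothelial markers rose. All 4 measured smooth muscle markers fell, with a mean of 0.86 to 1.05 in the Control arrays and −1.5 to −0.85 in the DEHP arrays. In such bulk RNA, fewer cells of a type and less RNA per cell cannot be told apart, and the part of smooth muscle cells in the results below was not tested.

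Under DEHP, 5 of the 37 measured members rose, 10 fell and 22 did not pass. Over all genes tested 24.6% passed, 14.4% higher and 10.2% lower. The passing members were concentrated in the ATF4 and CHOP targets, where 12 of 15 passed. Only 2 of the 17 measured ER chaperone and degradation genes passed, and 1 of the 5 sensors and regulators. The 6 DEHP values lay wholly apart from the 6 Control values in 10 members, against 16.9% of all genes.

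**Figure D1:**
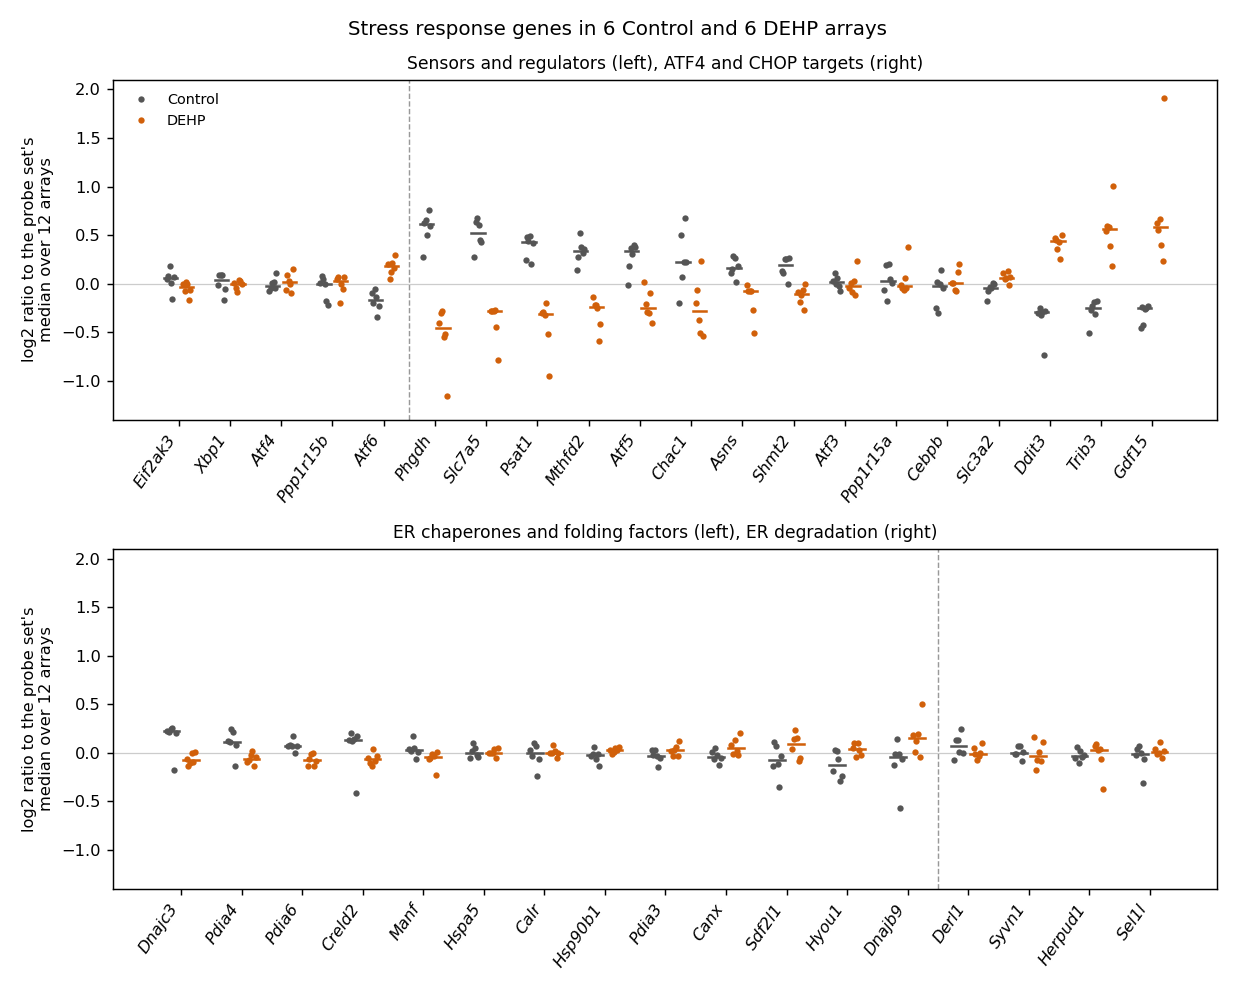
Log2 ratio of each array to the probe set's median over 12 arrays, for 37 members on the x axis, with Control arrays in grey, DEHP arrays in orange and a short line at each group's median. The groups part widely among the ATF4 and CHOP targets, downward from Phgdh to Mthfd2 and upward for Ddit3, Trib3 and Gdf15, while Atf4 and most ER genes overlap around 0.

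The sensors and regulators differed little, with a median log2 fold of 0.025 against −0.018 over all genes. Atf4 itself, the central transcription factor, ran from −0.08 to 0.11 in Control arrays (median −0.02) and from −0.1 to 0.15 in DEHP arrays (median 0.015). The groups overlapped throughout, and its log2 fold of 0.025 ± 0.049 did not pass (adjusted p = 0.777, 95% interval −0.082 to 0.13). ATF4 is controlled mainly through translation, which these arrays do not read.

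Atf6, whose ER-bound protein is cut in the Golgi to release a transcription factor, was the member of this list that passed. Its Control values ran from −0.34 to −0.05 (median −0.17) and its DEHP values from 0.05 to 0.3 (median 0.18). Every DEHP array was above every Control array, at a log2 fold of 0.35 ± 0.055 (1.27-fold, adjusted p = 0.000589). Among the others, Eif2ak3, the PERK kinase, had −0.085 ± 0.055. Xbp1, the transcription factor that IRE1 activates by splicing its mRNA, had −0.016 ± 0.049, which counts all its mRNA here since splice forms were not resolved. Ppp1r15b, the constitutive partner of the phosphatase that reverses eIF2 phosphorylation, had 0.036 ± 0.064, and none of these 3 passed.

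The ATF4 and CHOP targets went both ways, with 4 higher, 8 lower and 3 that did not pass. Their median log2 fold was −0.29, and their median size was 0.49 against 0.11 over all genes. In 11 of the 15 the size exceeded that of Dnajb9, the ER member with the largest log2 fold (0.27).

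Of the 4 rises, those of CHOP, its feedback partner and a secreted factor were larger than that of Slc3a2, given with the transporters. Ddit3, which encodes CHOP, ran from −0.73 to −0.25 in Control arrays (median −0.3) and from 0.25 to 0.5 in DEHP arrays (median 0.44). The groups lay apart, with a log2 fold of 0.77 ± 0.079 (a 1.71-fold rise, adjusted p = 1.54e-05). Its lowest Control value came from Control replicate 5, and without that array the log2 fold was 0.7. Trib3, a pseudokinase that ATF4 and CHOP induce and that restrains them in turn, ran from −0.51 to −0.18 in Control arrays (median −0.25) and from 0.18 to 1.01 in DEHP arrays (median 0.56). It was 1.78-fold higher (0.83 ± 0.11, adjusted p = 0.000167), again with no overlap.

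Gdf15, a stress-induced hormone of the TGF beta family that heart cells release, rose most of the members but also varied most. Control values lay between −0.46 and −0.23 (median −0.26), and DEHP values between 0.23 and 1.91 (median 0.59). The groups did not overlap, and 5 DEHP arrays reached at most 0.67 while DEHP replicate 6 stood at 1.91. The log2 fold was 1.04 ± 0.22 (2.06-fold, adjusted p = 0.00499), and 0.81 without DEHP replicate 6 (adjusted p = 1.77e-05). Of all genes, 101 had a larger rise than Gdf15, 193 than Trib3 and 226 than Ddit3.

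The falls were mainly in the amino acid and serine branch. Phgdh, the first enzyme of serine synthesis from glycolytic intermediates, ran from 0.28 to 0.76 in Control arrays (median 0.61) and from −1.16 to −0.28 in DEHP arrays (median −0.46). It was 2.15-fold lower (log2 fold −1.11 ± 0.14, adjusted p = 7.82e-05), and 109 of all genes fell further. Psat1, the aminotransferase of the next step, ran from 0.2 to 0.49 in Control arrays (median 0.43) and from −0.95 to −0.2 in DEHP arrays (median −0.31). Its groups lay apart as well, with a log2 fold of −0.81 ± 0.11 (adjusted p = 0.000223). The other Psat1 probe set had −0.36 ± 0.13 and did not pass (adjusted p = 0.0696), with Control replicate 5 at −0.28 among the DEHP values.

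The mitochondrial enzymes that pass serine carbon into the folate pool fell too. Mthfd2 ran from 0.14 to 0.52 in Control arrays (median 0.34) and from −0.59 to −0.14 in DEHP arrays (median −0.24), without overlap. Its probe sets gave like values, −0.64 ± 0.08 (adjusted p = 9.03e-05) and −0.65 ± 0.06 (adjusted p = 5.65e-06). Shmt2, which splits serine into glycine and a folate-bound carbon, had a smaller fall of −0.29 ± 0.058 (adjusted p = 0.00308), and its groups touched near 0 through Control replicate 5 and DEHP replicate 6. Asns, asparagine synthetase, ran from 0.018 to 0.29 in Control arrays (median 0.17) and from −0.51 to −0.018 in DEHP arrays (median −0.075). That is a log2 fold of −0.34 ± 0.081 (adjusted p = 0.0104).

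Of the subunits of the large neutral amino acid transporter, the transport subunit and the anchoring subunit did not move alike. Slc7a5, which carries leucine and other large amino acids, ran from 0.27 to 0.68 in Control arrays (median 0.52) and from −0.79 to −0.27 in DEHP arrays (median −0.28). It was 1.87-fold lower (log2 fold −0.91 ± 0.1, adjusted p = 2.53e-05). Slc3a2, the glycoprotein that holds it at the membrane and serves several other transporters, was 1.09-fold higher (0.12 ± 0.04, adjusted p = 0.047). That call was narrow: it held in 2 of the 12 fits that left out 1 array (without Control replicate 5 and without DEHP replicate 5), with adjusted p from 0.0284 to 0.109.

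Counted by role after these values were seen, 6 of the 7 genes of amino acid and folate carbon supply fell and 1 rose. Of the 8 measured stress factors, feedback and secreted genes 3 rose, 2 fell and 3 did not pass. The mean of the supply genes lay between 0.14 and 0.4 in the Control arrays and between −0.54 and −0.16 in the DEHP arrays.

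The falls outside the supply genes were Atf5 and Chac1. Atf5, a bZIP factor related to ATF4 that is linked to the mitochondrial unfolded protein response, had a log2 fold of −0.49 ± 0.084 (1.4-fold lower, adjusted p = 0.00116). Its Control values of −0.015 to 0.4 overlapped its DEHP values of −0.4 to 0.015 only through Control replicate 1 and DEHP replicate 1. Chac1, an enzyme that degrades glutathione, overlapped widely, from −0.2 to 0.68 in Control arrays and from −0.54 to 0.23 in DEHP arrays. Its log2 fold of −0.49 ± 0.16 had an adjusted p of 0.0477 and passed in 2 of the 12 fits without 1 array (without Control replicate 1 and without DEHP replicate 5), with adjusted p from 0.0152 to 0.109.

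Atf3, Cebpb and Ppp1r15a did not pass. Atf3, an early bZIP target, had −0.013 ± 0.058 (95% interval −0.14 to 0.11). Cebpb, the C/EBP factor that pairs with ATF4 and also serves the acute phase response, had 0.1 ± 0.078 (95% interval −0.067 to 0.27). Ppp1r15a, the inducible GADD34 subunit of the eIF2 phosphatase, had 0.012 ± 0.086 (95% interval −0.17 to 0.2). Its DEHP values lay between −0.069 and 0.061 in 5 arrays and at 0.38 in DEHP replicate 6, and without that array its log2 fold was −0.055.

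Promoters were searched for the composite element that ATF4 and C/EBP factors bind, TGATGNAA, on both strands of the 250 bases before each RefSeq start (build GRCr8). Of the 40 members 33 had such a sequence. The element was found in 3.4% of all 33469 windows and in 4 of the 33 members, Trib3, Chac1, Ppp1r15b and Herpud1. The stretches below show it in capitals with 10 bases on each side, read in the direction of the element. The capitals are shared because the search asked for them. Of these genes Trib3 rose, Chac1 fell by the narrow call given above, and Ppp1r15b and Herpud1 did not pass. Whether the element bears on these values was not tested.
Trib3 (chr3:161275537-161275564, plus strand): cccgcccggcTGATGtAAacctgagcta
Chac1 (chr3:126795954-126795981, minus strand): ctagcaggagTGATGcAAcggcggagaa
Ppp1r15b (chr13:47129812-47129839, plus strand): taggtccggcTGATGcAActtgccgcgt
Herpud1 (chr19:10614874-10614901, plus strand): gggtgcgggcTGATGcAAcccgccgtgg

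Counted from the start site, the element spans positions −21 to −14 in Trib3 and −167 to −160 in Chac1. None of the supply genes held these letters in this window.

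**Figure D2:**
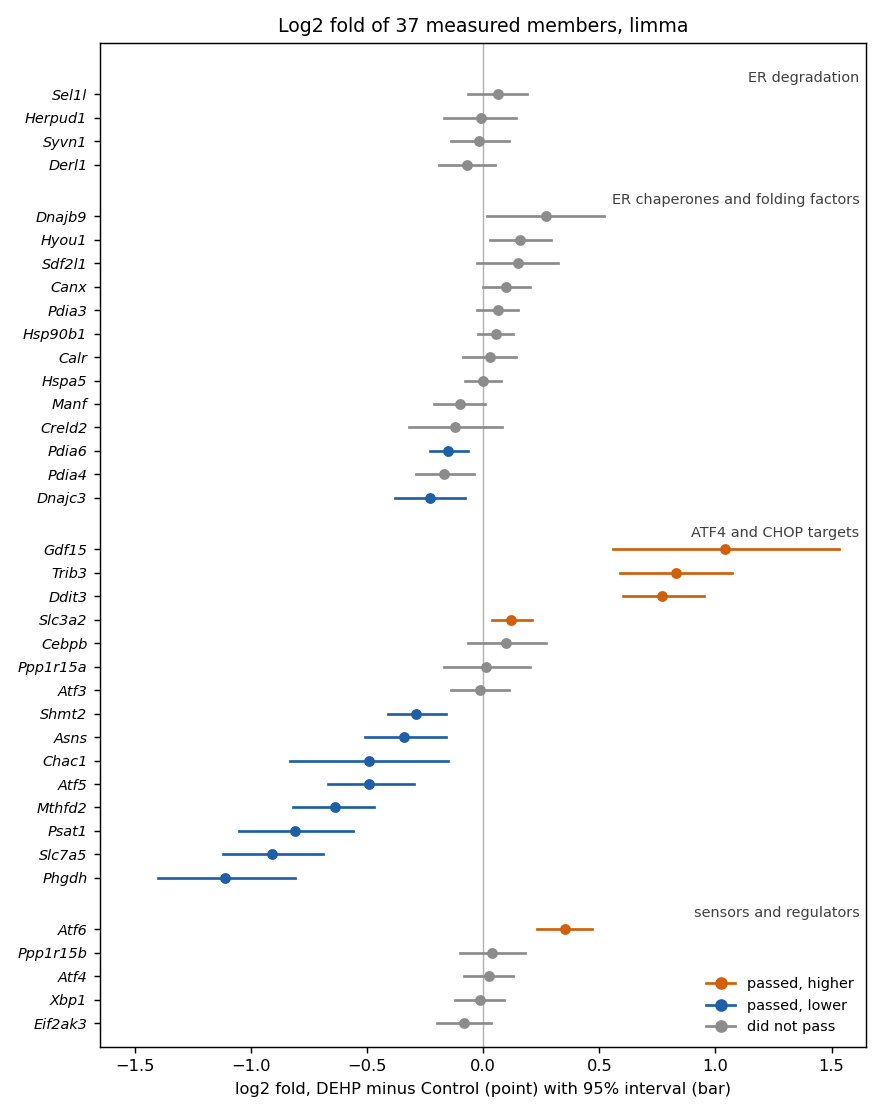
Log2 fold (DEHP minus Control, points) with its 95% interval (bars) for 37 members on the y axis, by role, in orange where the gene passed and rose, blue where it passed and fell, and grey where it did not pass. The ATF4 and CHOP targets span −1.11 to 1.04, whereas the ER chaperones and folding factors span −0.23 to 0.27.

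ER chaperones and folding factors differed between the groups by small amounts, near the size seen over all genes. Of 13 members 0 rose and 2 fell (15.4% passing, against 24.6% of all genes), with a median log2 fold of 0.028. Their median size was 0.12 against 0.11 over all genes. With array weights Dnajb9 passed as a rise (0.18, adjusted p = 0.0499) and Pdia4 and Creld2 as falls. With limma, 4 of the 11 others had an unadjusted p under 0.05, those of Canx, Pdia4, Dnajb9 and Hyou1. Hspa5, which encodes BiP, the main chaperone of the ER lumen and the usual reporter of the unfolded protein response, ran from −0.057 to 0.1 in Control arrays (median 0.00038) and from −0.05 to 0.054 in DEHP arrays (median 0). The groups overlapped fully, and the log2 fold was −0.0017 ± 0.036 (adjusted p = 0.982). Its 95% interval was −0.08 to 0.076, which rests on how cultures of this litter differed on these arrays.

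Other ER chaperones and a folding enzyme also had small log2 folds. Hsp90b1, the ER member of the HSP90 family, had 0.056 ± 0.036, Calr, the lectin calreticulin, had 0.028 ± 0.053, and Canx, its membrane-bound relative calnexin, had 0.1 ± 0.046 (adjusted p = 0.172). Pdia3, the disulfide isomerase that works with both lectins, had 0.062 ± 0.041. None of the 4 passed.

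Among the other disulfide isomerases, Pdia6, which also helps to switch off the sensors, fell slightly. Its Control values ran from 0.0027 to 0.17 (median 0.072) and its DEHP values from −0.13 to −0.0027 (median −0.071). The groups did not overlap, and the log2 fold was −0.15 ± 0.038 (1.11-fold lower, adjusted p = 0.0148). Pdia4 had −0.17 ± 0.058 and did not pass (adjusted p = 0.0691), but passed without Control replicate 5 (−0.21, adjusted p = 0.00269).

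The co-chaperones of BiP were not uniform. Dnajc3, which encodes p58IPK, an ER J-protein long known as an inhibitor of eIF2 kinases, fell by 0.23 ± 0.07 on the log2 scale (adjusted p = 0.0384). Its Control values lay between 0.2 and 0.26 in 5 arrays and at −0.18 in Control replicate 5, while its DEHP values lay between −0.14 and 0.0058. Without Control replicate 5 the fall was 0.3 and adjusted p was 6.03e-05, but of the 11 fits that left out another array only that without DEHP replicate 6 still passed (adjusted p up to 0.0857). Dnajb9, the J-protein ERdj4 that holds IRE1 inactive, had 0.27 ± 0.12 (adjusted p = 0.149). Control replicate 5 was its lowest array at −0.57, and without it the log2 fold was 0.17.

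Hyou1, a large nucleotide exchange factor of BiP, had 0.16 ± 0.06 (adjusted p = 0.0888, and 0.0483 and 0.0464 without Control replicates 2 and 3). Sdf2l1, which keeps BiP cycling on its clients, had 0.15 ± 0.08 (adjusted p = 0.267), and 0.092 without Control replicate 5. The secreted factors induced by ER stress gave lower values. Creld2 had −0.12 ± 0.092 (adjusted p = 0.442), and Manf, a protective factor first known from nerve cells, had −0.1 ± 0.049 (adjusted p = 0.206). For Creld2, Control replicate 5 stood at −0.41 and the other Control arrays at 0.12 to 0.2, and without that array it passed (−0.21, adjusted p = 0.00103).

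None of the 4 measured genes of ER degradation passed limma, against 24.6% of all genes, and none had an unadjusted p under 0.05. Herpud1, a membrane protein of the retrotranslocation complex and a target of ATF4 as well as ATF6, had −0.011 ± 0.072, and 0.056 without DEHP replicate 6, which stood at −0.37. Sel1l, the adaptor of the ubiquitin ligase complex, had 0.065 ± 0.059. Syvn1, the ligase HRD1 itself, had −0.019 ± 0.057, and Derl1, a derlin of the channel, had −0.069 ± 0.055. Over the 15 ER members that did not pass, the 95% intervals lay between −0.32 and 0.52. Control replicate 5 was the lowest Control array in 13 of the 17 ER members. In the mean of the 17, the array numbered 5 was lowest in both groups, at −0.16 in Control and −0.065 in DEHP.

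ER chaperone promoters are known for the ER stress element, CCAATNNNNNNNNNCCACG, which ATF6 binds with the factor NF-Y, and for its compact form ATTGGNCCACG. The long form was found in 22 of the 33469 windows (0.0657%) and the compact form in 14 (0.0418%), counting both strands. Of the 33 members with a sequence 7 held the long form and 2 the compact one, and no 2 elements found in a member overlapped. Of the 15 ATF4 and CHOP targets with a sequence, which include the unmeasured Sesn2 but not Atf3, 0 held either form. Stretches from 8 of these 9 members are shown, so that the element can be read in place, with the fixed letters in capitals and 10 bases on each side, read in the direction of the element.
Hspa5 (chr3:38452963-38453001, plus strand): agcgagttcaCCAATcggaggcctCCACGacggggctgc
Hsp90b1 (chr7:23012441-23012479, minus strand): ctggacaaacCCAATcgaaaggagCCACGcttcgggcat
Hsp90b1 (chr7:23012337-23012375, plus strand): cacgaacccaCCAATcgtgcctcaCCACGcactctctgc
Calr (chr19:40213125-40213163, minus strand): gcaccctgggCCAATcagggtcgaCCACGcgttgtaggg
Dnajc3 (chr15:102432524-102432562, plus strand): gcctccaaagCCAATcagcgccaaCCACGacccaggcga
Creld2 (chr7:121789229-121789267, minus strand): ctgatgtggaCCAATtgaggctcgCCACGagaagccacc
Xbp1 (chr14:84604548-84604586, plus strand): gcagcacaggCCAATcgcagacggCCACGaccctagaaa
Herpud1 (chr19:10614811-10614841, minus strand): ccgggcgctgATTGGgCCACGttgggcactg
Hyou1 (chr8:53602784-53602814, minus strand): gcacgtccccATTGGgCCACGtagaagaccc
Hyou1 (chr8:53602684-53602714, minus strand): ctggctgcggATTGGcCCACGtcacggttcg

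Of the 8 genes shown only Dnajc3 passed, and it fell, where 24.6% of all genes passed. So few genes do not set the count apart from that share. The other 7 had log2 folds from −0.12 in Creld2 to 0.16 in Hyou1. Atf6, which encodes the factor that reads the element, rose in the same arrays at the RNA level. Cutting of its protein is not read by these arrays. Whether the element or Atf6 bears on these values was not tested.

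Set side by side, the 15 targets had 12 passing genes and a median size of the log2 fold of 0.49. The 17 ER chaperone and degradation genes had 2 passing genes and a median size of 0.1. Over all genes 24.6% passed and the median size was 0.11. Per array, the mean of the targets minus the mean of the ER genes was −0.049 to 0.27 in Control arrays and −0.1 to 0.02 in DEHP arrays. These ranges overlapped, and the group means differed by −0.15, a mean over targets that rose and targets that fell. The 7 supply genes alone were set apart after their values were seen. Their difference from the ER genes was 0.14 to 0.41 in Control arrays and −0.57 to −0.17 in DEHP arrays. For Ddit3, Trib3 and Gdf15, chosen after their values were seen, it was −0.42 to −0.22 in Control arrays and 0.29 to 1.11 in DEHP arrays. The 2 subsets were formed with these values known, so their opposite directions follow from the choice and describe these arrays without testing the contrast. DEHP replicate 6 was the most extreme DEHP array of each subset.

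**Figure D3:**
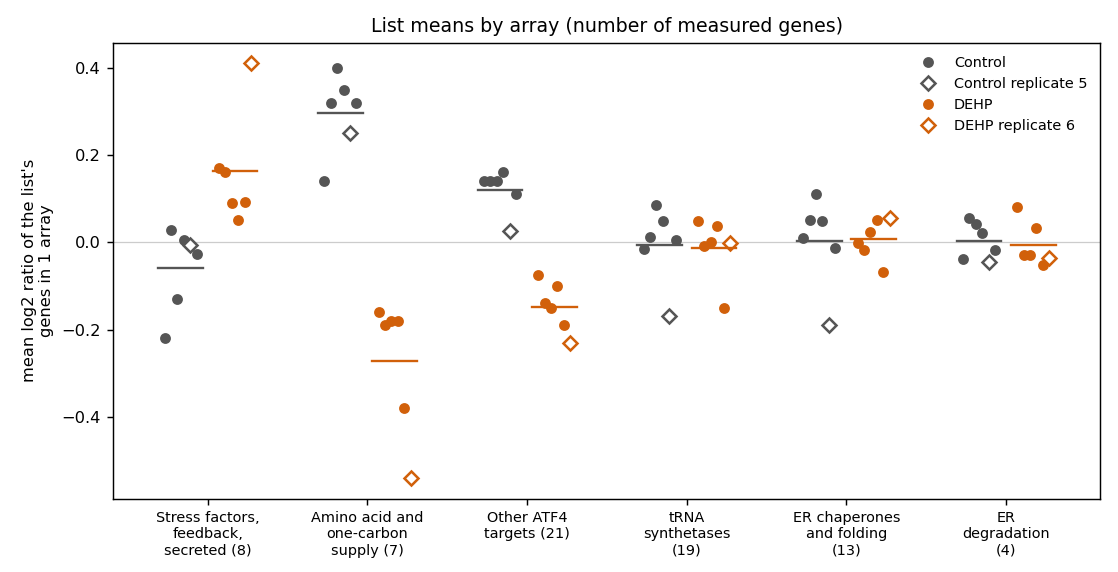
Mean log2 ratio of a list's genes in each array (y axis) for 6 lists (x axis, number of measured genes in brackets), with Control in grey, DEHP in orange, lines at group means and open diamonds for Control replicate 5 and DEHP replicate 6. The groups part for stress factors, feedback and secreted genes (−0.22 to 0.029 against 0.052 to 0.41). They part too for amino acid and folate carbon supply (0.14 to 0.4 against −0.54 to −0.16). These lists divide the target members by role, a split made after their values were seen. The groups also part for other ATF4 targets (0.025 to 0.16 against −0.23 to −0.074), and overlap for tRNA synthetases and both ER lists.

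Other genes of the pathway, taken from lists by role, are given by counts and by their leading genes. Of 21 other measured ATF4 targets 9 fell, 2 rose and 10 did not pass, with a median log2 fold of −0.28. That is 52.4% passing against 24.6% of all genes, and 10 had groups that did not overlap, against 16.9% of all genes. Cth, the last enzyme of cysteine synthesis from methionine, was 2.01-fold lower (−1.01 ± 0.057, adjusted p = 1.28e-07). Nupr1, a stress-induced chromatin protein, was 2.1-fold lower (−1.07 ± 0.075, adjusted p = 8.28e-07). Psph, which completes serine synthesis after Phgdh and Psat1, fell by 0.68 ± 0.053 on the log2 scale (adjusted p = 1.68e-06). RNA of all 3 enzymes of that route was thus lower, although the other Psat1 probe set did not pass (−0.36, adjusted p = 0.0696). The other 6 falls had log2 folds from −0.87 to −0.21.

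The rises among these ATF4 targets were Ddit4 and Tnfrsf10b. Ddit4, an inhibitor of mTORC1 signalling also known as REDD1, was 1.8-fold higher (0.85 ± 0.075, adjusted p = 4.47e-06), with no overlap between groups. Tnfrsf10b, a death receptor that CHOP is known to induce, rose by 0.21 ± 0.066 (adjusted p = 0.0444). That call held in 4 of the 12 fits without 1 array (without Control replicates 2, 4 and 6 and DEHP replicate 2), with adjusted p up to 0.0974.

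The cytosolic aminoacyl-tRNA synthetases, of which many are ATF4 targets, had a median log2 fold of −0.036, with 2 higher and 2 lower of 19. Their 21.1% passing was near the 24.6% of all genes. Kars1 (0.32 ± 0.058) and Qars1 (0.39 ± 0.089), which charge lysine and glutamine, rose, and Gars1 (−0.23 ± 0.05) and Cars1 (−0.22 ± 0.06), which charge glycine and cysteine, fell. Of 8 eIF2 kinases and eIF2 or eIF2B subunits 3 rose and 0 fell (37.5% passing, against 24.6% of all genes). The rises were in Eif2b4 (0.27 ± 0.06) and Eif2b5 (0.25 ± 0.067), subunits of the exchange factor that phosphorylated eIF2 blocks, and in Eif2ak1, the kinase HRI (0.29 ± 0.08, adjusted p = 0.0247). The call for Eif2ak1 was lost without Control replicate 6 or DEHP replicates 1, 2 or 3 (adjusted p up to 0.0586), and that for Eif2b5 without DEHP replicate 2 (adjusted p = 0.0501).

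Of 27 other ER folding and translocation genes 8 fell, 1 rose and 18 did not pass, with a median log2 fold of −0.075 (33.3% passing, against 24.6% of all genes). Sec61b (−0.42 ± 0.052) and Sec61g (−0.27 ± 0.057), small subunits of the translocation channel, and Spcs1 (−0.31 ± 0.046), of signal peptidase, fell, and P4hb, the major disulfide isomerase, rose (0.27 ± 0.053). Of 22 other ER degradation and signalling genes 4 rose and 4 fell (36.4% passing, against 24.6%). Traf2, an adaptor of IRE1 signalling (0.43 ± 0.061), Os9, a lectin of ER degradation (0.28 ± 0.044), and Wfs1, a regulator of ATF6 turnover (0.38 ± 0.086), rose. Ufd1, a cofactor of the extraction ATPase (−0.23 ± 0.041), and the ER-bound factors Creb3 (−0.21 ± 0.041) and Creb3l2 (−0.33 ± 0.079) fell.

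**Figure D4:**
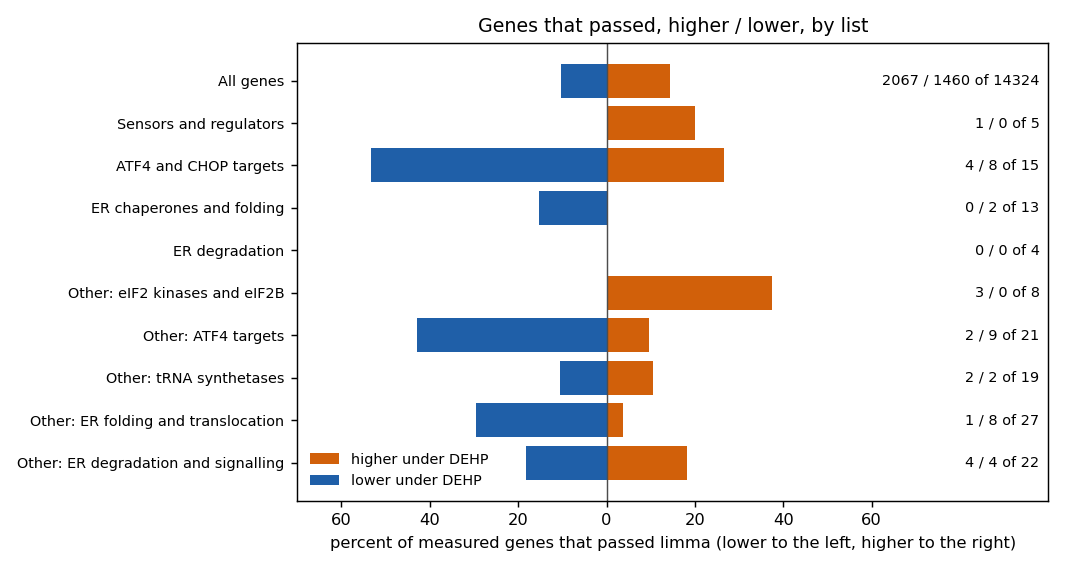
Percent of measured genes (x axis) that passed limma higher (orange, to the right) or lower (blue, to the left) under DEHP, for all genes and for lists of the stress responses (y axis), with counts of higher and lower genes at the right. ATF4 targets passed most often, mainly lower (8 of 15 members and 9 of 21 other genes), and no ER degradation member passed.

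Both Control replicate 5 and DEHP replicate 6 were also left out together. Phgdh then had −0.94 ± 0.078, Psat1 −0.74 ± 0.064, Slc7a5 −0.84 ± 0.076, Ddit3 0.68 ± 0.045, Trib3 0.73 ± 0.086 and Gdf15 0.82 ± 0.083, all passing. Hspa5 had −0.017 ± 0.039 and Atf4 −0.0097 ± 0.048, neither passing. Of the 15 calls among the members 14 were shared with the full comparison, Chac1 was lost, and Pdia4 and Creld2 were gained as falls.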

How the data were processed

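RNA from 6 Control and 6 DEHP cultures was measured on 1 array each. RMA is the tool named in the submitters' processing notes, without a version, and a genome build is not given in the sources used here. In the deposited table every one of the 27342 probe sets has a median log2 ratio over 12 arrays within 1e-05 of 0. Each deposited ratio therefore sets an array against the middle of its own probe set and is on a linear scale. Log2 of these values was used with no further normalization. The number of arrays limits the precision, and a filter on dim probe sets was not possible.

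DEHP was compared with Control by limma 3.58.1 in R 4.3.3 (lmFit and eBayes, two-sided, Benjamini-Hochberg over all probe sets). The call was tried on simulated arrays with independent normal noise. It recovered 72 of 100 changed probe sets at a log2 fold size of 0.5 and 99 of 100 at 1, with 10 false calls. The wider spread of Control replicate 5 and DEHP replicate 6 was not simulated. Genes were named through the platform annotation (15097 probe sets with 1 symbol, 323 with several, 11922 with none), and all 37 measured members' identifiers were in the RefSeq table of GRCr8. All members are named. Of the other lists, up to 3 passing genes a direction with the smallest p are named. The members and lists were chosen with earlier results of these data known. Plots were drawn with matplotlib 3.10.9.

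Alternatives were quantile normalization, median centring, array weights, robust eBayes, the replicate number as a block, the mean of a gene's probe sets, an adjusted p under 0.01, treat at a fold of 1.2, and leaving out arrays. One promoter stretch is not reported here.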

Additional observations from a re-analysis of the deposited data

Results flagged for a closer look

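In 17 of 122 groups of 6 arrays (the members' probe sets and the other named genes, each group apart) the highest or lowest array lay far from the rest by Dixon's criterion, where chance gives about 1 in 20 groups. Of these, 8 came from Control replicate 5 and 7 from DEHP replicate 6, the arrays with the widest spread. Values are log2 ratios.

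Control replicate 5 was the lowest Control array for Ddit3 (−0.73, others −0.32 to −0.25), Creld2 (−0.41, others 0.12 to 0.2), Dnajc3 (−0.18, others 0.2 to 0.26) and Dnajb9 (−0.57, others −0.12 to 0.14). It was also lowest for Sel1l (−0.31), Eif2b5 (−0.47), Kars1 (−0.37) and P4hb (−0.32). DEHP replicate 6 was highest for Gdf15 (1.91, others 0.23 to 0.67), Ppp1r15a (0.38) and P4hb (0.29). It was lowest for Phgdh (−1.16, others −0.55 to −0.28), Slc7a5 (−0.79, others −0.45 to −0.27), Herpud1 (−0.37) and Wfs1 (−0.1, others 0.33 to 0.46). DEHP replicate 5 was lowest for Manf (−0.23), and Control replicate 3 for Traf2 (−0.44). The cause of these values was not tested.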

How the results depend on the processing

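Over 21 alternatives, the log2 folds of 59 named genes (37 members and 22 others) kept their direction and side of the threshold in 1111 of 1239 values. The call was lost in 85 and gained in 11, and the sign changed in 32, in 9 genes of which 0 had passed. The count of members that rose, 5, became 3 with treat at a fold of 1.2, and the count that fell, 10, became 4 with treat and 6 at an adjusted p under 0.01. With array weights 6 rose and 12 fell, with Dnajb9, Pdia4 and Creld2 gained. Over all genes tested 3527 passed, against 870 with treat and 2339 at an adjusted p under 0.01, both stricter by construction, and 5036 with array weights. Without 1 array the member counts ran from 4 to 5 and from 8 to 11. The median log2 fold without 1 array ran from −0.32 to −0.26 for ATF4 and CHOP targets, from −0.0073 to 0.052 for ER chaperones and from −0.043 to 0.0071 for ER degradation, and the difference of list means from −0.18 to −0.11.

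Signs changed in genes near 0. With array weights Atf4 had −0.0035, Herpud1 0.026, Ppp1r15a −0.079 and Ppp1r15b −0.0016. With quantile normalization Herpud1 had 0.01 and Ppp1r15a −0.012, and with median centring Hspa5 had 0.005. Without both Control replicate 5 and DEHP replicate 6, Atf4 had −0.0097, Calr −0.013, Herpud1 0.052, Ppp1r15a −0.052 and Ppp1r15b −0.0075, while Atf3 (−0.067), Hspa5 (−0.017) and Syvn1 (−0.06) stayed below 0. Without 1 array the ranges were −0.059 to 0.012 for Atf3, −0.0014 to 0.049 for Atf4, −0.014 to 0.052 for Calr, −0.036 to 0.056 for Herpud1, −0.015 to 0.017 for Hspa5, −0.055 to 0.046 for Ppp1r15a, 0.0017 to 0.074 for Ppp1r15b, −0.053 to 0.015 for Syvn1 and −0.05 to 0.0014 for Xbp1. The cause was not tested.

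Same-numbered arrays of the groups deviated from their group means with correlations of 0.0717 (replicate 6) to 0.772 (replicate 5). Of 12 arrays 5 correlated best with their own number. The main fit did not take the numbers as pairs, and these values do not settle whether they mark pairs. With the replicate block 4352 of all genes passed, against 3527 in the main fit, and 4 members rose and 11 fell. Slc3a2 was lost and Pdia4 gained, and no other member's call changed.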
